A study of Mus musculus with 16 samples.

Results

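The 10 genes described here, Arntl, Clock, Per1, Per2, Per3, Cry1, Nr1d1, Nr1d2, Dbp and Tef, belong to the circadian clock, and they were followed in wounded mouse skin on 16 one-colour expression arrays. They were taken by gene name: every array probe whose RefSeq accession carries one of these symbols was taken, which gave 11 probes for 10 of the 20832 gene symbols named on the array. The study asked how topical estrogen affects the healing of skin wounds in female db/db mice, a type 2 diabetes model with a mutated leptin receptor on the C57BLKS/J background. The 4 kinds of wound compared were each taken on labelled day 7 and labelled day 14 after wounding, with 2 arrays per group, called replicate 1 and replicate 2. WT wounds came from female C57BL/6J mice of 10 to 12 weeks, so that genotype and strain cannot be told apart in any comparison of db/db with WT. The db/db wounds came from mice of 10 weeks and received nothing, the db/db + vehicle wounds received sesame oil every day, and the db/db + estrogen wounds received 0.75 ug/g a day of estradiol benzoate, an estrogen ester, in that oil. The wound and the intact skin around it were homogenised together, so that fewer cells of a type and less RNA per cell cannot be told apart. The animals were kept with 12 h of light a day, and the hour at which each wound was collected is not given in the sources used here. For clock genes a difference in hour and a difference between groups cannot be told apart, and every difference below is one between arrays of those labels.

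The labelled days are used here as names only, because the fold changes tabulated in the study matched arrays labelled with the opposite day, and the days may have been exchanged. Scanning was also done on separate days for the arrays of each labelled day, so that a change between labelled days cannot be told apart from one of scanning. Both db/db arrays of labelled day 14 lay on slide 3 and both WT arrays on slide 4. Genotype and slide therefore cannot be told apart between these arrays. Depth on an array is its brightness: its 75th percentile lay between 1091, on WT replicate 2 of labelled day 14, and 2548, between 70.1% and 79.0% of probes were well above background, and no spot was saturated. All 11 probes of the clock genes were well above background on all 16 arrays. All 6 keratinocyte markers and all 6 fibroblast markers, the defining cells of skin, were also well above background on all 16. Levels are given as the log2 signal of a probe minus the log2 of the 75th percentile of its array, so that 0 is the 75th percentile and a difference of 1 is 2-fold. Levels can be compared between groups for 1 gene, but not between genes, because each probe has its own brightness.

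The clock is a feedback loop that runs in most cells of the body, skin included. Arntl (also called Bmal1) and Clock form a pair that binds E-boxes and switches on the Per and Cry genes, whose products return to block the pair. Nr1d1 and Nr1d2 (Rev-erb alpha and beta) are switched on by the same pair and repress Arntl by competing with ROR factors at shared sites. Dbp and Tef, together with Hlf, are PAR bZIP factors that bind D-boxes and carry the rhythm to other genes, and Nfil3 represses at the same D-boxes. In rhythmic tissue, Arntl runs out of phase with Dbp, Nr1d1 and Per3.

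The 250 bases before the RefSeq start of 5 of these genes are printed first, because these genes carry most of the called differences below and because the 4 searched motifs are the ones through which the loop runs. Sequences are from RefSeq on GRCm38.p6, written 5′ to 3′ along the gene. Capitals mark a match, on either strand, to the E-box CACGTG, the E'-box CACGTT, the D-box TTATGTAA or the ROR half-site AGGTCA.
Per3, chr4:151044666-151044915, minus strand: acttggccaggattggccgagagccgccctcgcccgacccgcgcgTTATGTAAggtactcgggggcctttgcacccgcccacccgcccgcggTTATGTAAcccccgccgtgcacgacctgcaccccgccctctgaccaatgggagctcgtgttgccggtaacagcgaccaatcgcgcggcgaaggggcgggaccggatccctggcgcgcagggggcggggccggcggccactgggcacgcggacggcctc
Cry1, chr10:85185055-85185304, minus strand: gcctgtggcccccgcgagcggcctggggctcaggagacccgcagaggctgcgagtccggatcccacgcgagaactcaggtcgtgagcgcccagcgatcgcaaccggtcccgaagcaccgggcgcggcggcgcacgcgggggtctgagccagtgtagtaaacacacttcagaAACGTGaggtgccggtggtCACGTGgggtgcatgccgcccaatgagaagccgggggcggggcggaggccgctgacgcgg
Nr1d1, chr11:98775378-98775627, minus strand: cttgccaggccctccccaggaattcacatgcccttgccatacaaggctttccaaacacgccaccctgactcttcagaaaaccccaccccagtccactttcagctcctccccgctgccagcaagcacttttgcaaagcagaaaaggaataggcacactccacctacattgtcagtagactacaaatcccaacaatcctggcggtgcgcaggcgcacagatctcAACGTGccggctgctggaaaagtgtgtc
Tef, chr15:81811164-81811413, plus strand: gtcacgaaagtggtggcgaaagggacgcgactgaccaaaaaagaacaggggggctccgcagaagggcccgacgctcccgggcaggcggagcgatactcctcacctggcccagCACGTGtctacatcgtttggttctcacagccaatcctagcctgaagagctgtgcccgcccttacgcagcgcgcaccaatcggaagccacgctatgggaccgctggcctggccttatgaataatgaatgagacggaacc
Dbp, chr7:45704997-45705246, plus strand: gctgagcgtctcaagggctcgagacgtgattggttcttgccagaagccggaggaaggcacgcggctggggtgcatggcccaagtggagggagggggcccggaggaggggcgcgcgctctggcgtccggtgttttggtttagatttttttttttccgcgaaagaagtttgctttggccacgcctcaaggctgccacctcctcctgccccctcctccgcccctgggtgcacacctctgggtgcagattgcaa
The window of Per3 held 2 D-boxes, that of Cry1 an E'-box and an E-box, that of Nr1d1 an E'-box and that of Tef an E-box. The window of Dbp held none of the 4, which says only that these letters are not in these 250 bases. Among 32851 promoter windows of the same length, 6.02% held the E-box, 3.85% the E'-box, 0.819% the D-box and 14.0% the ROR half-site. In all, 9 of the 10 genes had a promoter entry, with 14 windows between them, and 8 windows of 7 genes held at least 1 match. The other matches were an E-box and a ROR half-site in Per1, a ROR half-site in Nr1d2 and in Clock, and an E-box in the second window of Tef. Arntl, called in more comparisons than Nr1d1, was not printed, and both its windows held none of the 4 motifs. The E-box reads alike on both strands, and no match overlapped another. A match is a description of the sequence, not a bound site.

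The clock genes differed widely in how far their group means moved. Per3 covered the widest range, 2.39 on the log2 scale between its lowest and highest group mean (5.26-fold), and Dbp the next, 2.26 (4.79-fold). That order is the one of the scaled signals, and the Per3 probe is dim. The range of Per3 lay between the 2 estrogen groups, while the lowest group of Dbp was vehicle of labelled day 14. Between the 2 estrogen groups Per3 differed by -2.39 and Dbp by -2.15 on the scaled signals. After the normexp background correction Per3 differed there by -1.17 and Dbp by -2.09, so that for these groups the order depended on the background correction. The middle of the list lay close together, with ranges of 1.52 for Tef, 1.51 for Cry1, 1.43 for Per2, 1.41 for Arntl and 1.40 for Nr1d1. Nr1d2 covered 1.04 and Per1 0.74. Clock hardly moved, with a range of 0.35. Of the 25908 probes well above background on all arrays, the median range was 0.88; 91.7% had a narrower range than Per3 and 90.5% a narrower one than Dbp, but only 5.86% a narrower one than Clock. The pooled SD between the 2 arrays of a group was 0.13 for Clock, 0.36 for Per3 and 0.41 for Dbp, against a median of 0.22 over those probes. Dbp, Per3 and Per1 each had a group whose arrays lay 0.99 or more apart, so that not every neighbour in the order of groups could be told from the next.

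**Figure D1:**
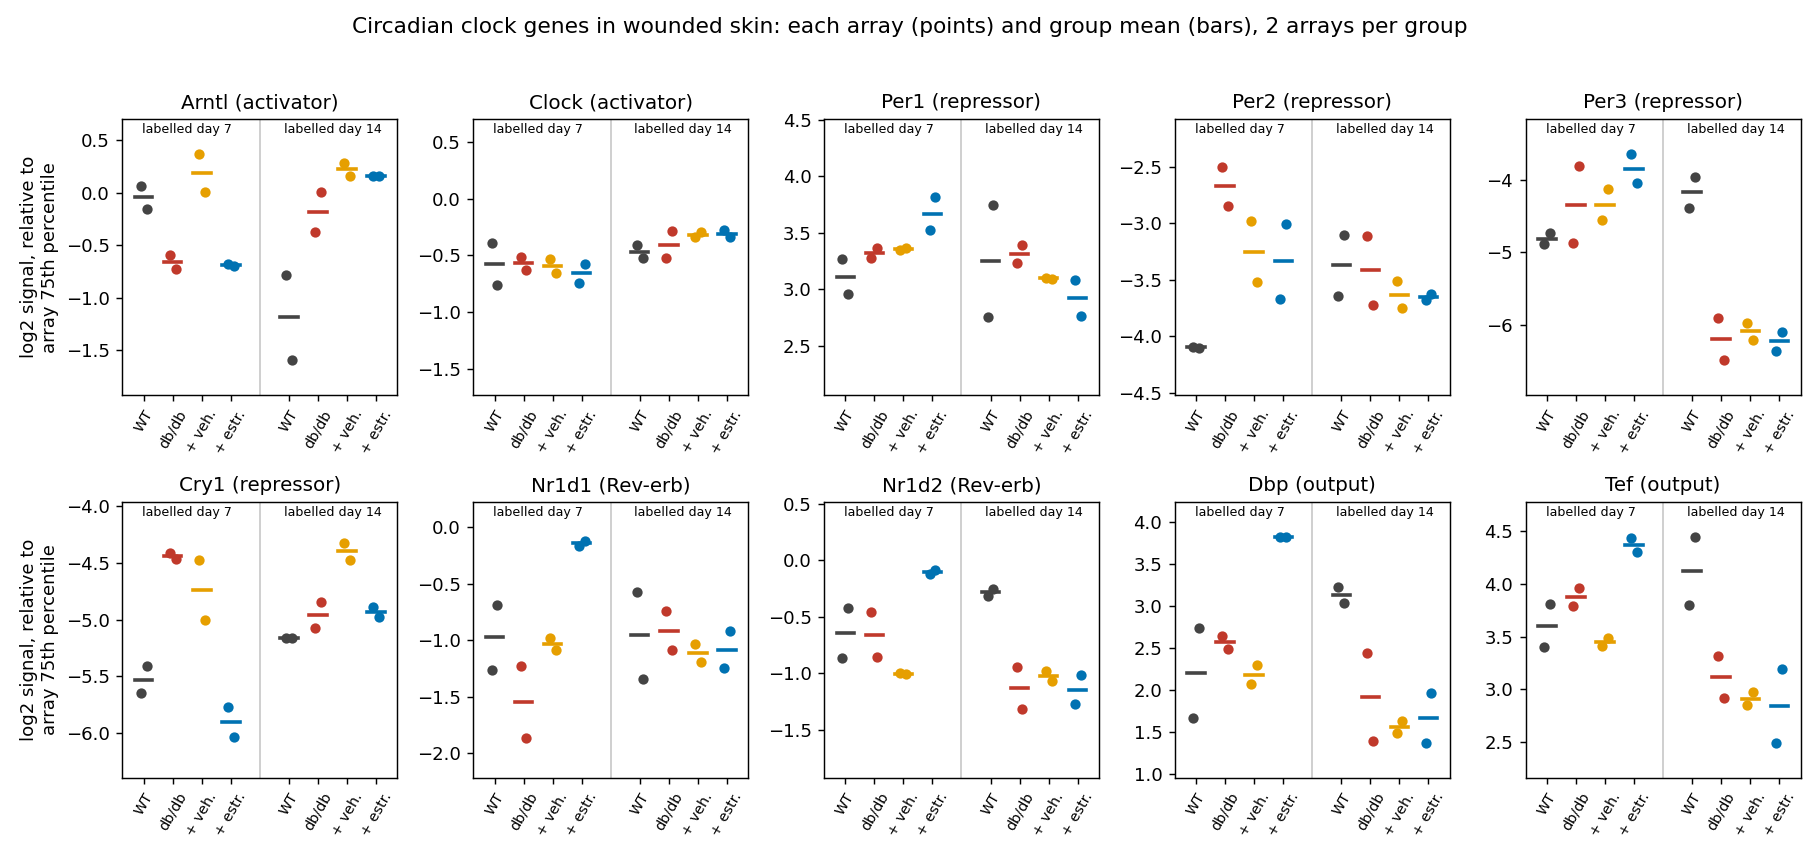
Log2 signal relative to the 75th percentile of the array (vertical axis, own scale per gene) for the 10 clock genes in 4 kinds of wound on 2 labelled days; points are single arrays, 2 per group, bars are group means, and "+ veh." and "+ estr." are db/db + vehicle and db/db + estrogen. Dbp, Nr1d1, Nr1d2, Tef, Per1 and Per3 have their highest group mean, and Cry1 and Clock their lowest, in db/db + estrogen wounds of labelled day 7. Per3 is low in all 3 db/db groups of labelled day 14.

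Dbp, a PAR bZIP factor often read as the output of the clock, stood highest in db/db + estrogen wounds of labelled day 7. Its replicates there read 3.83 and 3.82, against 2.65 and 2.49 in db/db wounds, 2.07 and 2.30 in db/db + vehicle wounds and 1.67 and 2.74 in WT wounds. Both estrogen arrays lay above each of the other 14 arrays for this gene. A gene is called here when the limma test gives an unadjusted two-sided p below 0.05 and a fold change above 2, the thresholds of the study, and the Benjamini-Hochberg adjusted p over all probes tested is given beside it. By this rule Dbp rose 2.38-fold over db/db wounds (log2 1.25 ± 0.39 (SE, n = 2 and 2), limma adjusted p = 0.094) and 3.11-fold over db/db + vehicle wounds (1.64 ± 0.39, adjusted p = 0.052). The comparisons of estrogen with no treatment and with vehicle share the estrogen arrays. Each adjusted p missed 0.05, although the second Dbp probe on the array gave 1.13 ± 0.39 (adjusted p = 0.13) and 1.83 ± 0.39 (adjusted p = 0.038).

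The order of Dbp was another one on labelled day 14. WT wounds read 3.23 and 3.04, and db/db wounds read 2.44 and 1.40. The db/db + vehicle wounds read 1.50 and 1.63 and the db/db + estrogen wounds 1.38 and 1.97. Both WT arrays lay above all 6 db/db arrays, and the 3 db/db groups overlapped. Dbp fell 2.32-fold in db/db against WT wounds (log2 -1.21 ± 0.39, limma adjusted p = 0.053), but the db/db arrays lay 1.04 apart. Without db/db replicate 2 the difference was -0.69 (limma unadjusted p = 0.12), without WT replicate 1 it was -1.12 (unadjusted p = 0.051), and with the slide as a fixed block it was -0.85 (unadjusted p = 0.16).

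Tef, the second PAR bZIP gene, followed a similar course. On labelled day 7 it read 4.43 and 4.30 in db/db + estrogen wounds, 3.79 and 3.96 in db/db, 3.41 and 3.48 in db/db + vehicle and 3.40 and 3.81 in WT wounds. The estrogen arrays lay above the other 6 of that labelled day, yet no difference there was over 2-fold: estrogen against vehicle was 0.92 ± 0.28 (SE, n = 2 and 2, limma adjusted p = 0.10), and estrogen against db/db 0.49 (95% interval -0.13 to 1.11). After quantile normalization the first of these was 1.02, over 2-fold and called. On labelled day 14 Tef read 3.80 and 4.44 in WT wounds, 3.32 and 2.91 in db/db, 2.85 and 2.97 in db/db + vehicle and 2.50 and 3.20 in db/db + estrogen wounds. The 2 WT arrays lay above all 6 db/db arrays. Tef fell in db/db against WT wounds by 1.01 ± 0.28 (limma adjusted p = 0.032), which is 2.01-fold and so just past the fold threshold. Leaving out WT replicate 2 gave -0.68 and leaving out db/db replicate 2 gave -0.80, normexp gave -0.94 and a slide block gave -0.59, none of them called.

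The Rev-erb genes, whose nuclear receptors repress Arntl, separated on labelled day 7. Nr1d1 read -0.16 and -0.12 in db/db + estrogen wounds, -1.23 and -1.87 in db/db, -0.98 and -1.09 in db/db + vehicle and -1.26 and -0.69 in WT wounds. The estrogen arrays were the highest of all 16. Nr1d1 rose 2.64-fold in estrogen-treated against db/db wounds (1.40 ± 0.30, SE, n = 2 and 2, limma adjusted p = 0.027), and this call was kept in all 15 other settings tried. Several of those settings, such as the other probe filters, reuse the same values of this gene and could not change its fold. Against vehicle the difference was 0.89 ± 0.30 (limma adjusted p = 0.14), below 2-fold. All 8 arrays of Nr1d1 on labelled day 14 lay between -1.34 and -0.57, and the groups overlapped: db/db minus WT was 0.04, with a 95% interval from -0.63 to 0.72.

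Nr1d2 had the narrower range of the pair but tighter replicates. Its estrogen arrays of labelled day 7 read -0.12 and -0.09, those of db/db wounds -0.46 and -0.86, of vehicle wounds -1.00 and -1.01 and of WT wounds -0.86 and -0.42. Estrogen-treated wounds were again above every other array. The difference from vehicle was 0.90 ± 0.20 (SE, n = 2 and 2, limma adjusted p = 0.046), or 1.86-fold, and so passed the adjusted p without the fold. The WT arrays of labelled day 14 read -0.32 and -0.25, the db/db arrays -0.95 and -1.32, the vehicle arrays -0.98 and -1.07 and the estrogen arrays -1.28 and -1.02. The WT arrays stood apart above all 6 db/db arrays, and db/db minus WT was -0.85 ± 0.20 (limma adjusted p = 0.018), or 1.80-fold.

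The 3 Period genes, which encode repressors of the Arntl and Clock pair, each behaved differently. Per3 split the arrays in the sharpest way. Its arrays of labelled day 14 read -4.39 and -3.95 in WT wounds, -5.91 and -6.49 in db/db, -5.98 and -6.21 in db/db + vehicle and -6.36 and -6.11 in db/db + estrogen wounds. All 6 db/db arrays lay below both WT arrays and below all 8 arrays of labelled day 7, which ran from -4.88 to -3.64. Per3 fell 4.10-fold in db/db against WT wounds of labelled day 14, groups on separate slides (log2 -2.03 ± 0.34, SE, n = 2 and 2, limma adjusted p = 0.0046). The same comparison on labelled day 7 gave 0.47 (95% interval -0.30 to 1.24). Per3 is the gene whose window above held 2 D-boxes, and a part of these D-boxes in its level was not tested. Its probe is dim, and with the normexp background correction, which adds an offset of 50 to every signal, the difference of labelled day 14 shrank to -0.98 and was no longer called.

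Per2 was called in 1 comparison, db/db against WT on labelled day 7. WT wounds read -4.10 and -4.10 and db/db wounds -2.50 and -2.84, while vehicle wounds read -2.98 and -3.52 and estrogen wounds -3.67 and -3.00. The WT arrays were the lowest of all 16. Per2 rose 2.69-fold in db/db against WT wounds (1.43 ± 0.30, SE, n = 2 and 2, limma adjusted p = 0.015), and with normexp the difference was 0.76 and not called. Its 8 arrays of labelled day 14 ran from -3.75 to -3.10 and the groups overlapped, with db/db minus WT at -0.04 (95% interval -0.72 to 0.63).

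Per1, which also responds within the hour to glucocorticoids and other acute signals, was not called in any comparison. Its 8 arrays of labelled day 7 ran from 2.96 to 3.82, with both estrogen arrays, at 3.52 and 3.82, above the other 6. On labelled day 14 its widest pair was WT, at 2.75 and 3.74, and that pair enclosed all 6 db/db arrays. Among the treatment comparisons fitted within a labelled day, the widest difference of Per1 was -0.39 (95% interval -1.01 to 0.23), for estrogen against db/db wounds of labelled day 14.

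Cry1, the partner of the Period proteins in the repressing complex, moved the opposite way to Dbp in estrogen-treated wounds. On labelled day 7 it read -4.41 and -4.46 in db/db wounds, -4.48 and -5.01 in vehicle wounds, -5.65 and -5.41 in WT wounds and -5.78 and -6.04 in estrogen wounds. The estrogen arrays were the lowest of all 16, and the db/db arrays lay above those of the other 3 groups of that labelled day. Cry1 rose 2.14-fold in db/db against WT wounds (1.10 ± 0.19, SE, n = 2 and 2, limma adjusted p = 0.0073). It fell 2.77-fold in estrogen-treated against db/db wounds (-1.47 ± 0.19, limma adjusted p = 0.0031) and 2.24-fold against vehicle (-1.16 ± 0.19, adjusted p = 0.015). Cry1 is dim as well: with normexp these 3 differences were 0.15, -0.60 and -0.42, and none was called. Without WT replicate 1 the first was 0.98, and without vehicle replicate 1 the third was -0.90, each just under 2-fold. On labelled day 14 Cry1 read -5.16 and -5.16 in WT wounds, -5.08 and -4.84 in db/db, -4.89 and -4.97 in estrogen and -4.32 and -4.47 in vehicle wounds. Vehicle minus db/db was 0.56 ± 0.19 (limma adjusted p = 0.19), and the estrogen arrays lay within the span of the db/db arrays.

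Arntl, the activator that the Rev-erb proteins repress, was lowest in WT wounds of labelled day 14. Its arrays there read -0.78 and -1.60, against -0.37 and 0.01 in db/db wounds, 0.29 and 0.16 in vehicle wounds and 0.16 and 0.16 in estrogen wounds. Both WT arrays lay below all 6 db/db arrays. Arntl rose 2.01-fold in db/db against WT wounds (1.01 ± 0.25, SE, n = 2 and 2, limma adjusted p = 0.022), with WT replicates 0.81 apart. Without WT replicate 2, the dimmest of the 16 arrays, the difference was 0.60, without db/db replicate 2 it was 0.82, and it was called in neither case. With normexp it was 0.93 and with the slide as a fixed block 0.94, both also under 2-fold.

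Arntl on labelled day 7 stood the other way round. It read 0.07 and -0.16 in WT wounds, -0.59 and -0.72 in db/db, -0.68 and -0.70 in estrogen and 0.37 and 0.00 in vehicle wounds. The db/db and estrogen arrays lay below the WT and vehicle arrays. Here db/db minus WT was -0.61 ± 0.25 (SE, n = 2 and 2, limma adjusted p = 0.14), vehicle minus db/db 0.84 ± 0.25 (adjusted p = 0.20) and estrogen minus vehicle -0.88 ± 0.25 (adjusted p = 0.087), all under 2-fold. The Arntl difference between db/db and WT was 1.62 ± 0.36 higher on labelled day 14 than on labelled day 7 (limma adjusted p = 0.073), so that the change of sign did not pass the adjusted threshold.

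Clock, the partner of Arntl in the activating pair, gave no called difference. Its 16 arrays ran from -0.76 to -0.27, and in each of the 7 steps of its order of group means the neighbouring groups overlapped. The difference between db/db and WT wounds was 0.01 on labelled day 7 (95% interval -0.35 to 0.36) and 0.06 on labelled day 14 (-0.29 to 0.41), so that a 2-fold change lies outside both intervals.

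In the order of the 8 group means, some neighbours stood apart in all their arrays and others overlapped. No share over all probes was computed for such steps. For Dbp these were db/db + estrogen of labelled day 7 above WT of labelled day 14, and that group above db/db of labelled day 7, while the 5 lower steps overlapped. For Per3 a single step stood apart, WT of labelled day 7 above vehicle of labelled day 14, by 1.29. For Tef it was vehicle of labelled day 7 above db/db of labelled day 14, by 0.33. Arntl had 3 such steps, the widest of 0.50 between estrogen of labelled day 7 and WT of labelled day 14, its lowest group. Cry1 had 4, the lowest of them separating WT and estrogen of labelled day 7 by 0.37. Nr1d1, Nr1d2, Per1 and Per2 also had such steps.

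**Figure D2:**
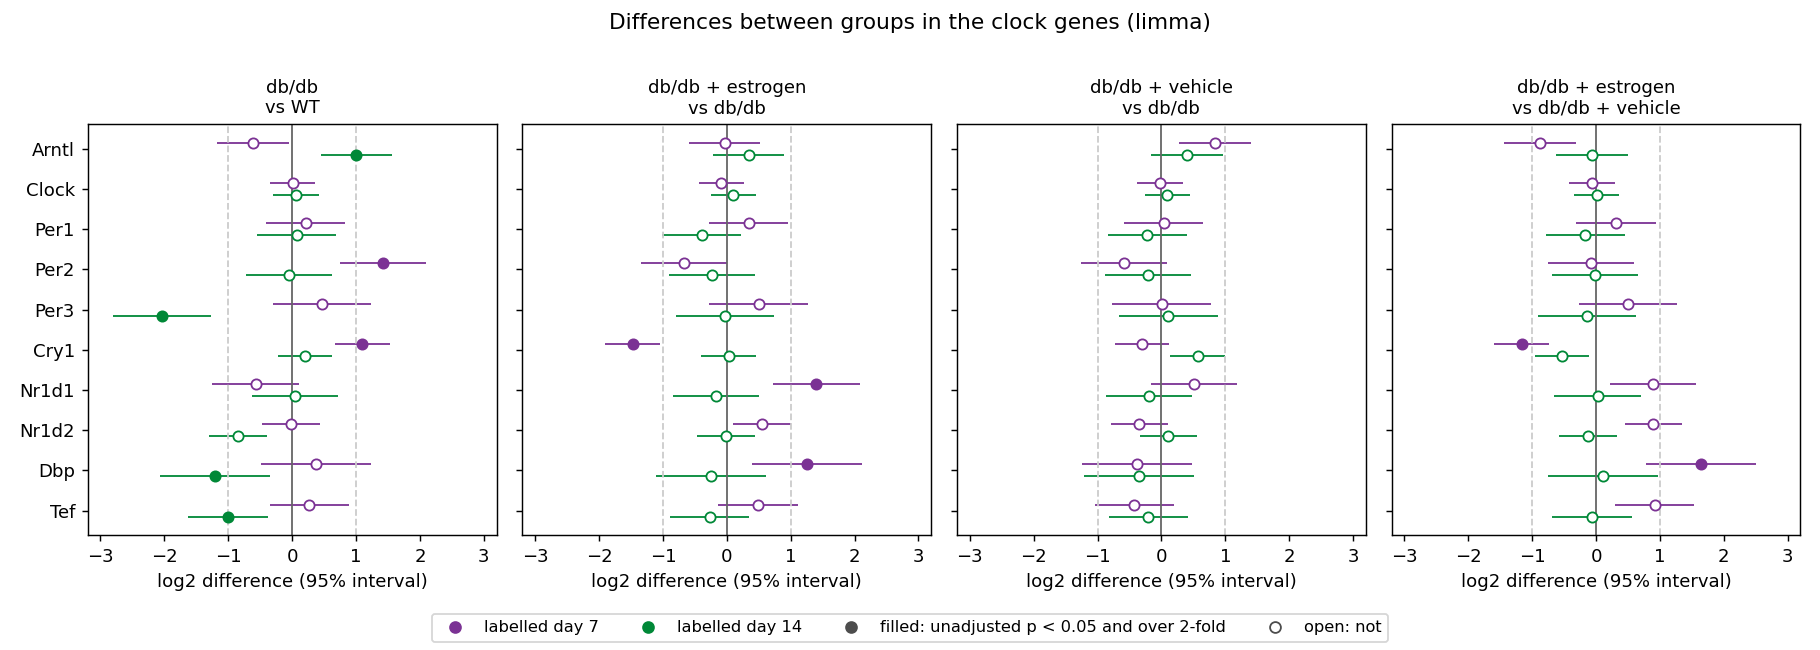
Log2 differences with 95% intervals (horizontal axis) from limma for the 10 clock genes in the 4 treatment comparisons, on labelled day 7 (purple) and labelled day 14 (green); filled points were called, and dashed lines mark 2-fold. The called points are Per2 and Cry1 on labelled day 7 and Arntl, Per3, Dbp and Tef on labelled day 14 for db/db against WT, and Cry1, Nr1d1 and Dbp for estrogen on labelled day 7.

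Counted by comparison, the clock genes called were set against all probes tested, and nothing particular to them is read from the counts. For db/db against WT on labelled day 7, Per2 and Cry1 were called, 2 of 10, against 14.1% of all probes. The same comparison on labelled day 14, where the groups lay on separate slides, called 4 of 10, Arntl, Per3, Dbp and Tef, against 18%. For estrogen against db/db on labelled day 7, Cry1, Nr1d1 and Dbp were called, 3 of 10, against 9.92%, and for estrogen against vehicle Cry1 and Dbp, 2 of 10, against 8.99%. The vehicle alone gave 0 called genes on labelled day 7, where 4.82% of probes were called, and limma gave 1 gene, Arntl, an unadjusted p below 0.05, as it did for 13.6% of probes. With the adjusted p in its place, the counts on labelled day 7 were 2 of 10 for db/db against WT (9.07% of probes), 2 for estrogen against db/db (4.84%), 0 for vehicle against db/db (0.148%) and 1 for estrogen against vehicle (2.56%), and on labelled day 14 it was 3 for db/db against WT (13.6%). No clock gene was called on labelled day 14 for estrogen against db/db (background 3.91%), vehicle against db/db (7.51%) or estrogen against vehicle (0.984%). By unadjusted p alone limma gave 0 of 10 in the first of these (8.93% of probes) and 1, Cry1, in the second (17.5%) and in the third (5.38%).

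As a list, the clock genes had a median difference of 0.42 for estrogen against db/db wounds on labelled day 7, against 0.04 over all probes, and of 0.40 for estrogen against vehicle, against 0.01. The median for db/db against WT was 0.24 on labelled day 7, where all probes had -0.05, and 0.00 on labelled day 14, where all probes had -0.12 and where Arntl and Per3 lay on opposite sides. The arrays of the groups did not overlap for 7 of 10 clock genes in estrogen against db/db on labelled day 7 (53.5% of all probes) and for 8 of 10 in estrogen against vehicle (58.8%), and for 2 of 10 in each of these comparisons on labelled day 14 (44.8% and 40.4%). For db/db against WT the arrays stood apart for 4 of 10 clock genes on labelled day 7 (58.1%) and for 6 on labelled day 14 (65.8%), and for vehicle against db/db for 7 (42.2%) and 3 (65.7%).

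Between the labelled days Per3 moved in all 3 db/db groups, with scan day as a limit on every value. On labelled day 14 it was 3.64-fold lower than on labelled day 7 in db/db wounds (log2 -1.86 ± 0.34, SE, n = 2 and 2, limma adjusted p = 0.010), 3.38-fold in vehicle wounds (-1.76 ± 0.34, adjusted p = 0.012) and 5.26-fold in estrogen wounds (-2.39 ± 0.34, adjusted p = 0.0057). With normexp the difference was -0.72 in db/db and -0.90 in vehicle wounds, neither of them called, and -1.17 with estrogen, still called. In WT wounds it read 0.64 (95% interval -0.13 to 1.41) in the other direction. Estrogen-treated wounds had the most called genes, 4 of 10, against 13.9% of all probes. Besides Per3 these were Dbp at -2.15 ± 0.39 (4.43-fold, adjusted p = 0.012), Tef at -1.52 ± 0.28 (2.87-fold, adjusted p = 0.012) and Nr1d2 at -1.04 ± 0.20 (2.06-fold, adjusted p = 0.015), which was -0.98 and not called after quantile normalization. Cry1 was 1.97-fold higher there (adjusted p = 0.015), just under the fold threshold. In db/db and in vehicle wounds Per3 was the single called gene (backgrounds 12.6% and 11.7%). In WT wounds it was Arntl, at -1.14 ± 0.25 (2.21-fold, adjusted p = 0.21, background 4.32%), which was -0.74 and not called without WT replicate 2 of labelled day 14.

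Whether an effect differed between the labelled days was tested directly. None of the 40 combinations of gene and treatment comparison passed at a limma adjusted p below 0.05 (0.693% of probes for db/db against WT, 0.0953% for estrogen against db/db, 0.00979% for estrogen against vehicle and 0% for vehicle against db/db), while 16 had an unadjusted p below 0.05. For db/db against WT, 7 of 10 genes were below the unadjusted threshold, against 13.7% of all probes, and the lowest adjusted p belonged to Per3, whose difference was 2.50 lower on labelled day 14 (SE 0.49, adjusted p = 0.055). For estrogen against db/db it was 3 of 10 (10%), with Cry1 the lowest at 1.50 ± 0.27 (adjusted p = 0.099). For estrogen against vehicle it was 5 of 10 (11.2%), and for vehicle against db/db 1 of 10 (4.99%). Arrays that stood apart in opposite directions on the labelled days were found for 1 of 10 genes in each comparison: Arntl for db/db against WT (4.24% of all probes), Per1 for estrogen against db/db (6.87%) and against vehicle (8.28%), and Cry1 for vehicle against db/db (4.75%).

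Some pairs of the list varied together over the 16 arrays and others did not. Nr1d1 had a Pearson r of -0.09 with Arntl, 0.08 with Per1, 0.18 with Per3 and -0.18 with Per2. Dbp had a Pearson r of 0.93 with Nr1d2 (Spearman rho 0.92), 0.91 with Tef (0.93) and 0.78 with Per3 (0.84), and -0.75 with Arntl (-0.82). Per3 and Tef had an r of 0.89 (rho 0.92), and Arntl and Tef -0.82 (-0.82). Clock had an r of -0.79 with Per3 (rho -0.84), although its own range was narrow. These are descriptions over arrays that fall in 8 groups of 2 and share slides and scan days, so no p is given. The differences between the 2 replicates of each group, over the 8 groups, had an r of 0.86 for Dbp with Nr1d2, 0.64 for Dbp with Tef, 0.28 for Dbp with Per3 and -0.31 for Dbp with Arntl. The replicates differed in the same direction for Dbp and Nr1d2 in 4 of 8 groups, with the widest Dbp differences in WT of labelled day 7 and db/db of labelled day 14.

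**Figure D3:**
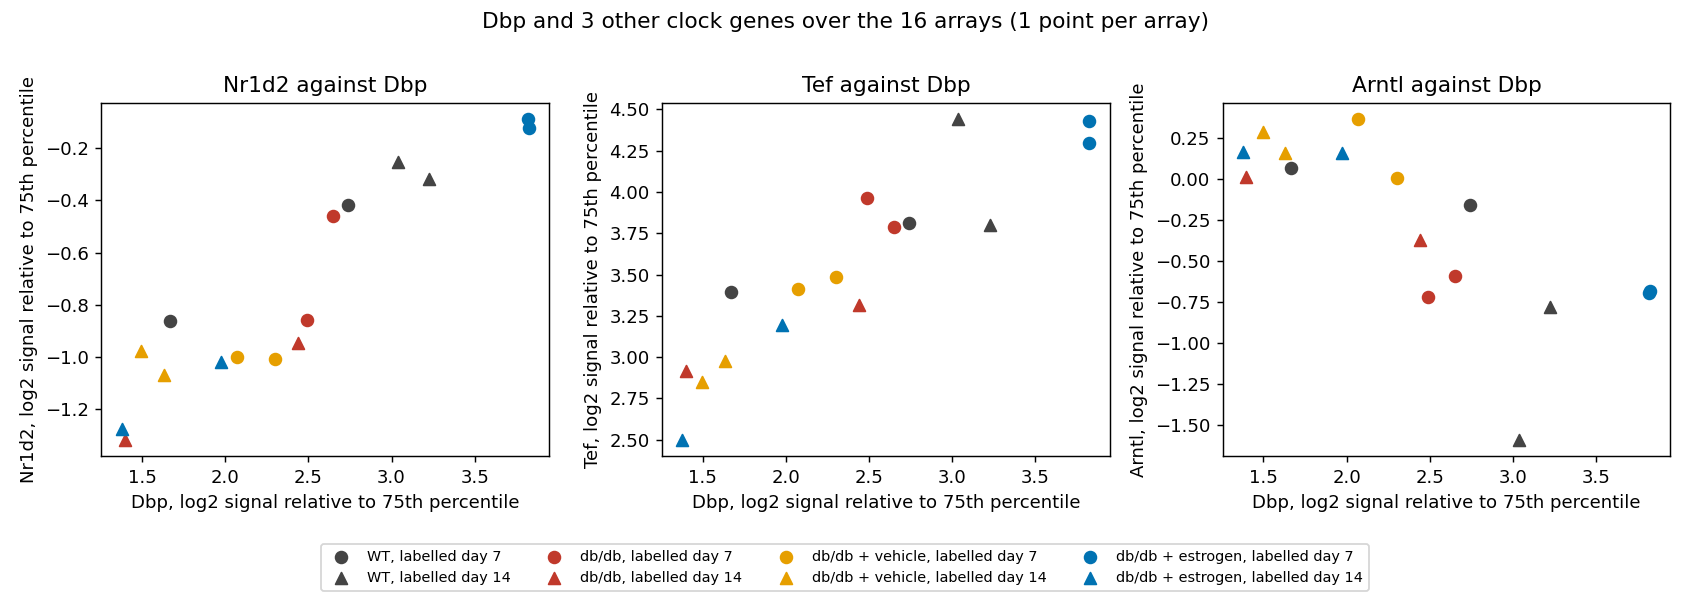
Log2 signal relative to the 75th percentile of Nr1d2, Tef and Arntl (vertical axes) against that of Dbp (horizontal axes), 1 point per array, 16 arrays, coloured by kind of wound and shaped by labelled day. Nr1d2 and Tef rise with Dbp (r 0.93 and 0.91), and Arntl falls (r -0.75), with the estrogen arrays of labelled day 7 at the high end of Dbp.

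Among 15355 gene symbols well above background on all arrays, the one most like Dbp over the 16 arrays was Nr1d2 and the second was Tef, while Per3 held place 25 and Nr1d1 place 492. Arntl stood at place 15307, near the opposite end. The genes outside the list with the highest r to Dbp were Tnmd (0.88), Aspa (0.88), Zfp708 (0.87), Cdh19 (0.84) and Kif7 (0.84), and those with the lowest were Cd274 (-0.86), Degs2 (-0.84), Wbp1l (-0.83), Rhou (-0.82) and 1600014C23Rik (-0.82). For Arntl the highest were Arfgef1, Frat1, Gata6, Cdyl and Prr13 (0.82 to 0.81) and the lowest Pced1a, Rnf215, Brms1l, Zfp28 and Iqce (-0.90 to -0.85), with Tef at place 15345.

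**Figure D4:**
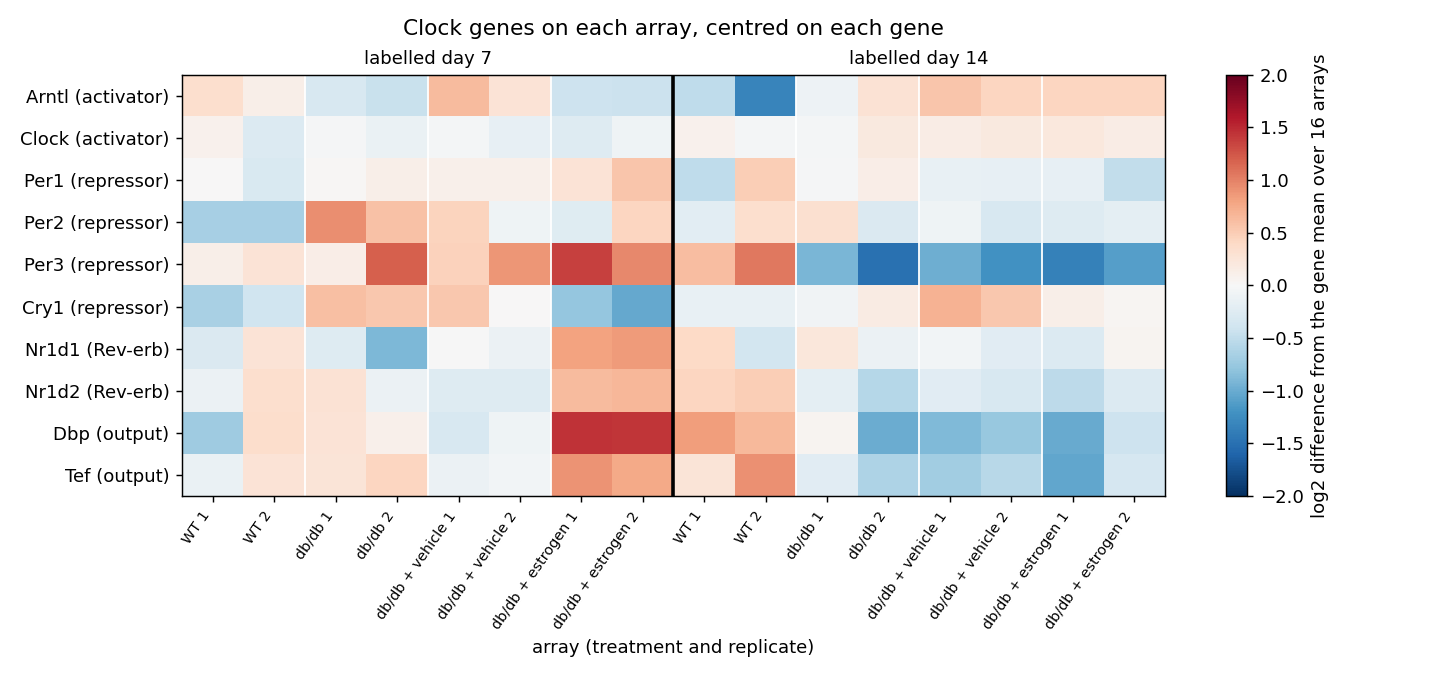
Each clock gene (rows) on each of the 16 arrays (columns, by kind of wound and replicate, labelled day 7 left and labelled day 14 right), as the log2 difference from its own mean over the arrays. Dbp, Nr1d1, Nr1d2, Per1, Per3 and Tef are above their means, and Arntl, Clock and Cry1 below, on both estrogen arrays of labelled day 7. On the 6 db/db arrays of labelled day 14 Per3 is below its mean throughout.

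Further genes of the clock network, a list of 21, were read in the same fit, and all had a probe. For db/db against WT on labelled day 7, 1 was called higher and 3 lower, against 5.67% and 8.42% of all probes. Nfil3, the repressor at D-boxes, rose by 1.11 ± 0.22 (SE, n = 2 and 2, limma adjusted p = 0.012), while Npas2, a relative of Clock, fell by 1.08 (adjusted p = 0.022), Rora, an activator of Arntl, fell by 1.00 (adjusted p = 0.029) and Arntl2, a relative of Arntl, fell by 1.48 (adjusted p = 0.10). On labelled day 14, 1 was called higher and 2 lower, against 2.35% and 15.6% of all probes: Nfil3 rose by 1.83 ± 0.22 (limma adjusted p = 8.7e-04), Arntl2 fell by 2.13 (adjusted p = 0.024) and Ciart, a rhythmic repressor of the Arntl and Clock pair also called Chrono, fell by 1.81 ± 0.24 (adjusted p = 0.0016). The list had 18 genes that were not called there.

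In estrogen-treated against db/db wounds of labelled day 7, 2 of the 21 were called higher and 2 lower, against 5.22% and 4.71% of all probes. Hlf, the remaining PAR bZIP gene, rose by 1.33 ± 0.44 (SE, n = 2 and 2, limma adjusted p = 0.11) and Ciart by 1.27 ± 0.24 (adjusted p = 0.016). Nfil3 fell by 1.40 ± 0.22 (limma adjusted p = 0.0064) and Bhlhe40, which encodes the E-box repressor Dec1, fell by 1.21 ± 0.27 (adjusted p = 0.029). On the single arrays Bhlhe40 read 0.15 and 0.09 with estrogen, and each of the other 14 arrays read 1.10 or more. Nfil3 read 0.55 and 1.06 with estrogen, 2.41 and 2.00 in db/db, 1.88 and 1.69 in vehicle and 1.24 and 0.95 in WT wounds, so that estrogen and WT arrays overlapped and both lay below the rest. Against vehicle, Bhlhe40 fell by 1.60 (adjusted p = 0.015) and Hlf rose by 1.09 (adjusted p = 0.19), with the vehicle arrays of Hlf far apart at -2.05 and -0.65. Vehicle against db/db on labelled day 7 called Ciart alone, at 1.03 (adjusted p = 0.13).

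**Figure D5:**
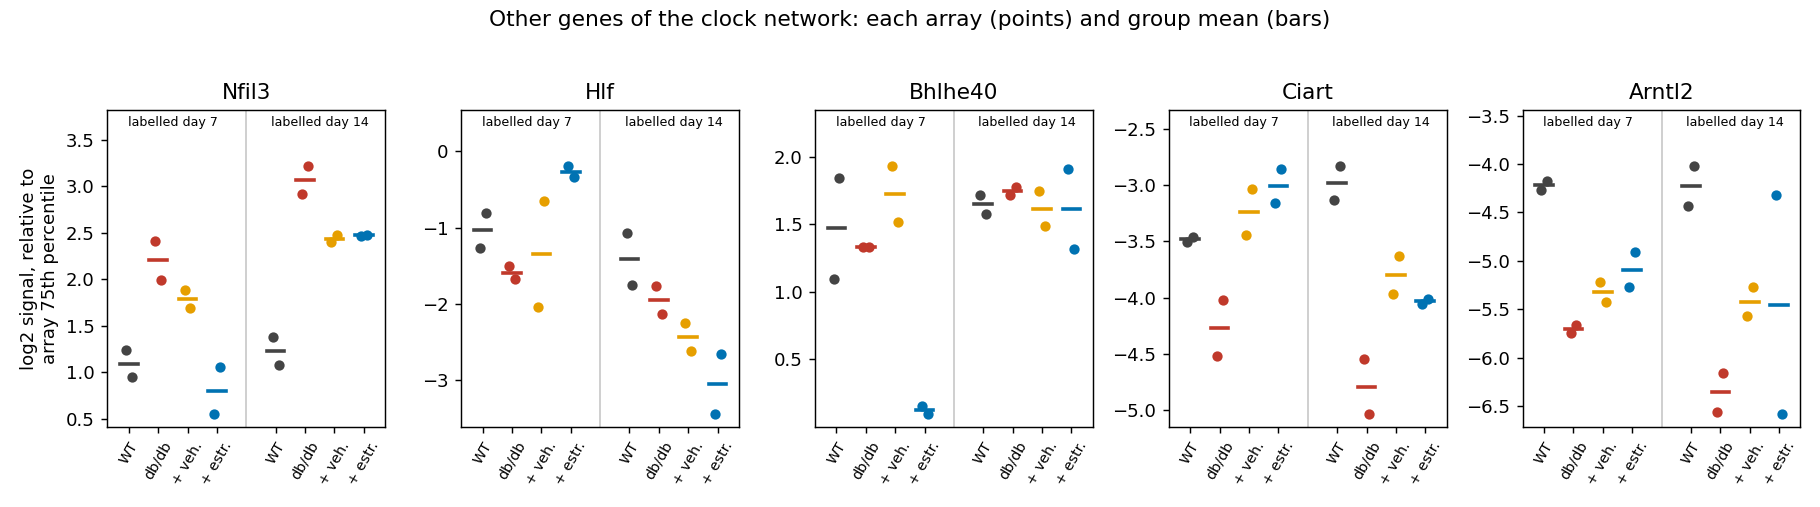
Log2 signal relative to the 75th percentile of the array (vertical axis) for 5 further clock genes, with single arrays as points and group means as bars, for 4 kinds of wound on 2 labelled days; "+ veh." and "+ estr." are db/db + vehicle and db/db + estrogen. Bhlhe40 is low on both estrogen arrays of labelled day 7, Nfil3 is low there and in WT wounds, and Ciart is low in db/db wounds of each labelled day.

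The same list on labelled day 14 had 1 called gene for estrogen against db/db, Hlf at -1.11 (limma adjusted p = 0.49), and none for vehicle against db/db or estrogen against vehicle. For labelled day 14 against labelled day 7, 2 of the 21 were called higher and 2 lower in estrogen-treated wounds, against 3.05% and 10.8% of all probes: Nfil3 was higher by 1.67 ± 0.22 (limma adjusted p = 0.0049), Bhlhe40 higher by 1.49 ± 0.27 (adjusted p = 0.011), Hlf lower by 2.79 ± 0.44 (6.93-fold, adjusted p = 0.0076) and Ciart lower by 1.03 ± 0.24 (adjusted p = 0.027). All 3 PAR bZIP genes, Dbp, Tef and Hlf, were called lower there and Nfil3 higher. Hlf and Nfil3 were drawn after their values were seen, and a part of D-boxes in these changes was not tested. In vehicle wounds Hlf was called lower by 1.08 (limma adjusted p = 0.14).

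Acute signals can reset or induce clock genes, and so 2 lists of such targets were read beside them. Of 8 glucocorticoid targets, 3 were called higher in db/db than WT wounds of labelled day 7, against 5.67% of all probes: Fkbp5 by 1.14, Mt1 by 1.25 and Mt2 by 1.15 (limma adjusted p = 0.021, 0.021 and 0.047), and on labelled day 14 Dusp1 was higher by 1.55 (adjusted p = 0.011). None of the 8 was called for estrogen or vehicle on either labelled day. Of 9 immediate early genes, 7 were called higher in db/db than WT wounds of labelled day 14, against 2.35% of all probes, led by Fosb (4.88 ± 0.74, SE, n = 2 and 2, limma adjusted p = 0.0027), Nr4a1 (3.01), Fos (2.58) and Atf3 (1.94), with a median of 1.53 for the list. In estrogen against db/db wounds of that labelled day 6 of the 9 were called lower (1.36% of all probes) and in vehicle against db/db 3 (2.2%), but none at a limma adjusted p below 0.05. Per1, which belongs to the same kind of response, differed by 0.07 between db/db and WT on that labelled day (95% interval -0.55 to 0.69). For labelled day 14 against labelled day 7, 4 of the 9 immediate early genes were called lower in WT wounds (2.38% of all probes), with a median of -1.23. In db/db wounds 0 of the 9 were called (12.6% of all probes), with a median of 0.58. The part of these signals in the clock gene differences was not tested.

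Markers of cell types moved with several of the groups and are given beside the clock genes as summed levels. All 6 neutrophil markers summed to 2.63 to 4.64 on the estrogen arrays of labelled day 7, with 5 to 6 of them well above background, and to 8.55 to 8.74 on the db/db arrays, 8.65 to 8.72 on the vehicle arrays and 8.21 to 8.25 on the WT arrays of that labelled day. These sums are set by S100a8 and S100a9, which other cells of skin also express, and the granule genes differed more. In db/db against WT wounds of labelled day 7, where Per2 and Cry1 were called, 4 of the 6 neutrophil markers were called higher, against 5.67% of all probes. These were Ngp by 9.42, Ltf by 8.13, Camp by 7.08 and Mpo by 5.72 (limma adjusted p = 0.0016, 3.3e-04, 9.6e-04 and 0.0035), while S100a8 and S100a9 were not called. All 6 were called lower in estrogen-treated against db/db wounds of labelled day 7 (4.71% of all probes), with a median of -6.29. In vehicle against db/db wounds of that labelled day 4 of the 6 were called lower (2.3%), with a median of -4.87. For estrogen against vehicle it was 3 of the 6 (4.32%), with a median of -2.28. In db/db against WT wounds of labelled day 14, 3 of the 6 were called higher (2.35% of all probes), with a median of 1.79. On labelled day 14 all 4 groups lay between 7.95 and 8.75. The 5 hair follicle keratins summed to 2.99 to 3.47 with estrogen on labelled day 7, against -2.99 to -2.63 in db/db wounds (2 to 3 detected), -2.01 to 1.14 with vehicle and -0.09 to 4.63 in WT wounds, and to between -2.68 and -1.88 on labelled day 14. The 4 melanocyte markers summed to 1.25 to 2.00 with estrogen on labelled day 7, against -1.01 to -0.46 in db/db and 2.64 to 3.25 in WT wounds. The 4 macrophage markers summed to 6.58 on both db/db arrays and to 4.91 to 5.63 in WT wounds of labelled day 7. For db/db against WT on labelled day 14, the 4 macrophage markers with a probe, of 5, summed to 6.19 to 6.27 against 5.07 to 5.75, the 4 slow muscle markers to 6.10 to 7.03 against 1.93 to 4.25 and the melanocyte markers to -1.08 to -0.76 against 0.35 to 1.92. None of these markers was at 0; Ngp was well above background on 13 of 16 arrays, Krt25 on 9, Krt33a on 7 and Krt71 on 15, and the other markers named here by list on all 16. The part of these cells in the clock gene differences was not tested.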

How the data were processed

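RNA from whole-wound homogenate was labelled with Cy3 and hybridised to 16 mouse 4x44K arrays, 8 groups with 2 arrays each. Per the file headers and the methods, the authors scanned the slides and extracted them with Agilent Feature Extraction 11.0.1.1, and the deposited values used here are its background-subtracted, detrended processed signal intensity per spot with its detection flags. The deposited series matrix holds a linear ratio to a constant per array: for at least 99.44% of its 34643 probes on each array it equals that constant times the signal scaled to the 75th percentile, and it served as an alternative. The series design text calls the replicates biological, but which animal gave which array is not given in the sources used here.

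Control spots (of 44397 spots, 43020 remained) and outlier flags were left out, spots of a probe were averaged, and log2 intensity minus the log2 75th percentile of the array was taken. Of 39429 probes, 27427 (69.6%) were named through RefSeq accessions. One coefficient per group was fitted to all arrays in limma 3.58.1 (R 4.3.3, 8 residual df), testing a probe where 1 of the compared groups or both had it well above background on each array, and p-values were adjusted by Benjamini-Hochberg over all of them. An exact permutation test of 2 against 2 arrays cannot go below 0.333. A gene was read through its probe with the highest mean, and all 10 clock genes were named, with up to 4 called genes of each further list per comparison, those with the largest change. Bhlhe40, Nfil3, Hlf, Ciart and Arntl2 were drawn after their values were seen. The number of arrays limits the precision. Scripts were tested on simulated data, and promoters were searched with Python 3.11.15. The genes, the further lists and the tests were chosen with earlier results of these data known. Of 40 tabulated fold changes of db/db against WT wounds, 0 came within 1% on the arrays of the same labelled day and 40 on those of the other. The alternatives were other normalizations, background corrections and filters, a floor, the series matrix, slide and replicate blocks, the mean of all probes, the compared groups alone and each array left out.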

Additional observations from a re-analysis of the deposited data

Results flagged for a closer look

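In 4 cases every array of a treatment moved one way on labelled day 7 and the opposite way on labelled day 14, relative to the arrays it was compared with. That was 1 of 10 clock genes in each treatment comparison, against 4.24% to 8.28% of all probes, and nothing particular to clock genes is read from it. Arntl in db/db against WT wounds was lower on labelled day 7 and higher on labelled day 14, a difference between the effects of 1.62 (limma adjusted p = 0.073). Cry1 in vehicle against db/db wounds was lower on labelled day 7 and higher on labelled day 14, a difference of 0.87 (adjusted p = 0.89). Per1 in estrogen against db/db wounds was higher on labelled day 7 and lower on labelled day 14, a difference of -0.74 (adjusted p = 0.59). So was Per1 in estrogen against vehicle wounds, a difference of -0.48 (adjusted p = 0.71). None of the 4 passed the adjusted threshold, and the last 2 share the estrogen arrays.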

How the results depend on the processing

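Of 18 calls of clock genes, 6 were kept in each of 15 other settings: Dbp for estrogen against db/db and against vehicle on labelled day 7 and between the labelled days with estrogen, Nr1d1 for estrogen against db/db on labelled day 7, and Per3 and Tef between the labelled days with estrogen. With the Benjamini-Hochberg adjusted p in place of the unadjusted one, a further setting, both Dbp calls of labelled day 7 were lost (adjusted p = 0.094 and 0.052). All 270 values of the 18 calls under those settings had the same direction, and 247 kept the call. The other probe filters reuse the same fit and could not change a fold change or an unadjusted p. The floor, the series matrix and, for the 9 genes with 1 probe, the mean of all probes leave the fold changes almost as they were. Calls kept in those settings therefore add little to these counts. With normexp the number of clock genes called was 0 for db/db against WT on labelled day 7, 1 for estrogen against vehicle on labelled day 7, 1 for db/db against WT on labelled day 14, and 0 between the labelled days in db/db and in vehicle wounds. With the slide as a fixed block it was 1 for db/db against WT on labelled day 14, where no slide holds both groups, so that no within-slide value exists. With the adjusted p it was 1 for estrogen against vehicle on labelled day 7 and 0 between the labelled days in WT wounds. Effects that differed between labelled days numbered 1 with a floor on dim signals and 1 with the slide as a random block, Per3 for db/db against WT in both. The causes were not tested.

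Leaving out 1 array at a time gave 1 to 2 called clock genes for db/db against WT on labelled day 7 (1 without WT replicate 1), 3 to 4 for estrogen against db/db, 0 to 1 for vehicle against db/db (Arntl at 1.02 without vehicle replicate 2) and 1 to 3 for estrogen against vehicle (1 without vehicle replicate 1). On labelled day 14 it gave 1 to 5 for db/db against WT (1 without db/db replicate 2, 2 without WT replicate 2) and 0 to 0 in the other 3 comparisons. Between the labelled days it gave 0 to 2 in WT wounds (0 without WT replicate 2 of labelled day 14; Dbp added at 1.46 without WT replicate 2 of labelled day 7), 1 to 3 in db/db wounds (3 without db/db replicate 1 of labelled day 14, which added Dbp at -1.17 and Per2 at -1.05), 3 to 6 with estrogen and 1 to 1 with vehicle. Effects that differed between labelled days numbered 0 to 2: Arntl and Per3 without WT replicate 1 of labelled day 14, and Per3 without db/db replicate 1 of labelled day 7.

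Replicate numbers are shared by all groups. On labelled day 7 the number is also the slide, replicate 1 of every group lying on one slide and replicate 2 on another, but not on labelled day 14. Same-numbered arrays deviated together with correlations from -0.45 to 0.39 over pairs of groups, of both signs within labelled day 7 too, so that a pairing beyond the slide was not seen. With a replicate block the counts of called clock genes were 2, 3, 0 and 2 on labelled day 7, 4, 0, 0 and 0 on labelled day 14 and 1, 1, 4 and 1 between the labelled days, and 0 effects differed between labelled days, as without it. Quantile normalization brought the median difference of all probes within 0.07 of 0 in each comparison, whereas the scaled values had it between -0.16 and 0.11 and normexp between -0.38 and 0.18. Dim probes limit Per2, Per3 and Cry1, whose fold changes depend on the background correction.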
